A study of Macaca mulatta with 24 samples.

Results

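The peptide-loading and immunoproteasome genes of the major histocompatibility complex class I pathway were followed in whole blood of rhesus macaques (Macaca mulatta) before and after 4 Gy total-body irradiation. The list holds 10 genes, B2M, TAP1, TAP2, TAPBP, PSMB8, PSMB9, PSMB10, PSME1, PSME2 and ERAP1, and every non-control array probe whose gene name was one of these was taken. That gave 16 of 43603 probes, for 9 of the 10 genes. PSMB8 had no probe by gene name, and 3 probes described as proteasome subunit beta 8 are reported beside the others and kept out of the counts.

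RNA was hybridized to 24 one-colour Agilent rhesus arrays. The groups were 7 arrays before irradiation (labelled day 0, dose 0), then 4, 6 and 7 arrays from days 3, 5 and 7 after 4 Gy. Replicate numbers 1 to 4 are males and 5 to 7 females in every group, and the same number is taken as the same animal. Day 3 holds replicates 1, 2, 4 and 7, and day 5 lacks replicate 5. No strain, age at sampling or unirradiated time course is given in the labels. The labels name X-rays and the study's methods a cobalt source. The study's methods also name a human array, whereas the file headers give the rhesus build rheMac2 and the probes carry rhesus gene names, so the arrays are treated as rhesus here. Globin transcripts were depleted from every RNA sample.

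Class I molecules show peptides from inside the cell to CD8 T cells. The proteasome cuts proteins into peptides, and interferon replaces its constitutive catalytic subunits PSMB5, PSMB6 and PSMB7 with PSMB8, PSMB9 and PSMB10, which gives the immunoproteasome. PSME1 and PSME2 form the PA28 activator that caps it. The peptides enter the endoplasmic reticulum through the TAP1 and TAP2 transporter, ERAP1 trims them, and tapasin, the product of TAPBP, loads them onto the heavy chain with its light chain beta-2-microglobulin, the product of B2M. In blood these genes are expressed in nearly all nucleated cells, and interferon, IRF1 and NLRC5 raise them.

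In the rheMac2 coordinates of the scanner output, the probes of TAP2, PSMB8, TAP1 and PSMB9 lay within 31 kb of chromosome 4 (chr4:32524300-32555269), and those of TAPBP further along the same chromosome. The PSME1 and PSME2 probes lay within 5.4 kb of each other on chromosome 7. The TAPBP probes are called A, B and C in the order of their mean signal. Probe A mapped to chr4:33028468-33028527 on the minus strand and probe B to chr4:33018009-33018068, 10.5 kb downstream. Probe C, which carries no gene name and was matched to a TAPBP transcript by accession, mapped 258 bases beyond probe B. No annotation of rheMac2 was used, so exon and UTR positions are not given. A probe is called coding where an open frame in its letters reads as the named protein.

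The following sequences show the probes behind the results on TAPBP, of which probe B is coding, and a coding probe each for the light chain and for immunoproteasome subunits. Capitals mark 2 overlapping copies of the core of the interferon-stimulated response element (GAAA, any 2 bases, GAAA) in a 30-base stretch of TAPBP probe A.
TAPBP probe A, stretch: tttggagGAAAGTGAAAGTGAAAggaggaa
TAPBP probe B: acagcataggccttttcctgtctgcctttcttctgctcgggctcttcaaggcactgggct
B2M probe B (chr7:23130609-23130668, plus strand): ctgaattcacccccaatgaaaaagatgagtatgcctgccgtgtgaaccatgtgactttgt
PSMB9 probe B (chr4:32554119-32554178, plus strand): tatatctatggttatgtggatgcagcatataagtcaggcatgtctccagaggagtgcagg
PSMB8 probe B (chr4:32537230-32537289, minus strand): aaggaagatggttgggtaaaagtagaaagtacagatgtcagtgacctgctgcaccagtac

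Searched on both strands, this core was in 416 of all 43603 probes (0.954%) and in 1 of the 16 member probes, TAPBP probe A. This match describes probe letters and not binding.

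Signals are given as log2 of the processed signal after each array was shifted to a median array, and the limma threshold for a call was a Benjamini-Hochberg adjusted p under 0.005 over all probes tested. A gene is represented by its brightest tested probe, and levels of different probes are not comparable. All 9 member genes were tested, with 15 of the 16 probes. The second ERAP1 probe was well above background on 1 of 24 arrays and was not tested.

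The arrays lay on 6 slides and were scanned in 2 sessions. Session 1 held 6 pre-irradiation and 6 day 7 arrays, and session 2 held 1 pre-irradiation array (replicate 5), every day 3 and day 5 array and 1 day 7 array. A fit with session as a block therefore rests, for days 3 and 5, on 1 pre-irradiation array. Between 48.3 and 61.1% of probes were well above background on an array, and day 7 replicate 2 was the dimmest, at −2.03 log2 units from the reference array. Blood cell markers moved with the days. All 6 tested B cell markers were lower at each day, all 6 platelet markers were higher at day 3, and 5, 6 and 6 of the 6 tested erythroid markers were lower at days 3, 5 and 7, where 13.6%, 15.4% and 9.9% of all genes were called. With session as a block 0 of 6 platelet and 0 of 6 erythroid markers were called at day 3, with medians of 2.60 and −4.69. Of 7 tested neutrophil markers 2, 2 and 1 were called higher, with median differences of 1.17, 1.06 and 0.43, and their summed log2 level ran from 15.07 to 16.64 before irradiation and from 16.35 to 17.47, 16.34 to 17.22 and 15.93 to 18.06 at days 3, 5 and 7. Of 6 monocyte markers 0, 0 and 1 were called higher, with medians of 0.95, 0.84 and 1.07. Of 8 T cell markers 1, 1 and 0 were called lower, with medians of −0.60, −0.36 and 0.04, and of 7 NK cell markers 0 were called on each day, with medians of 0.42, 0.19 and 0.21. The part of these cells in the class I differences was not tested. In whole blood, fewer cells of a type and less RNA per cell cannot be told apart.

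At the brightest probe, 0 of 9 genes were called at day 3, 1 of 9 at day 5 and 1 of 9 at day 7, against 13.6%, 15.4% and 9.9% of all genes tested. The called gene was TAPBP on both days, lower than before irradiation at its brightest probe A. Its probe B was called higher on all 3 days, so no single direction is given for the gene. Probe B has an open frame that reads as tapasin, and which transcript probe A reports was not settled. At an unadjusted p under 0.05 in the same limma fits the counts were 5, 3 and 4 of 9, against 46.9, 43.9 and 38.1% of all genes. Over days 3, 5 and 7 the median log2 difference of the 9 genes was 0.47, 0.37 and −0.30, while the median over all genes tested was −0.0059, −0.0078 and −0.013. The median of the 9 genes turned sign with normexp background correction at day 5 (−0.22) and with quantile normalization at day 7 (0.16). At day 3 the mean was above the pre-irradiation mean in 8 genes, and at day 7 in 2. The 3 comparisons share the same 7 pre-irradiation arrays.

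**Figure D1:**
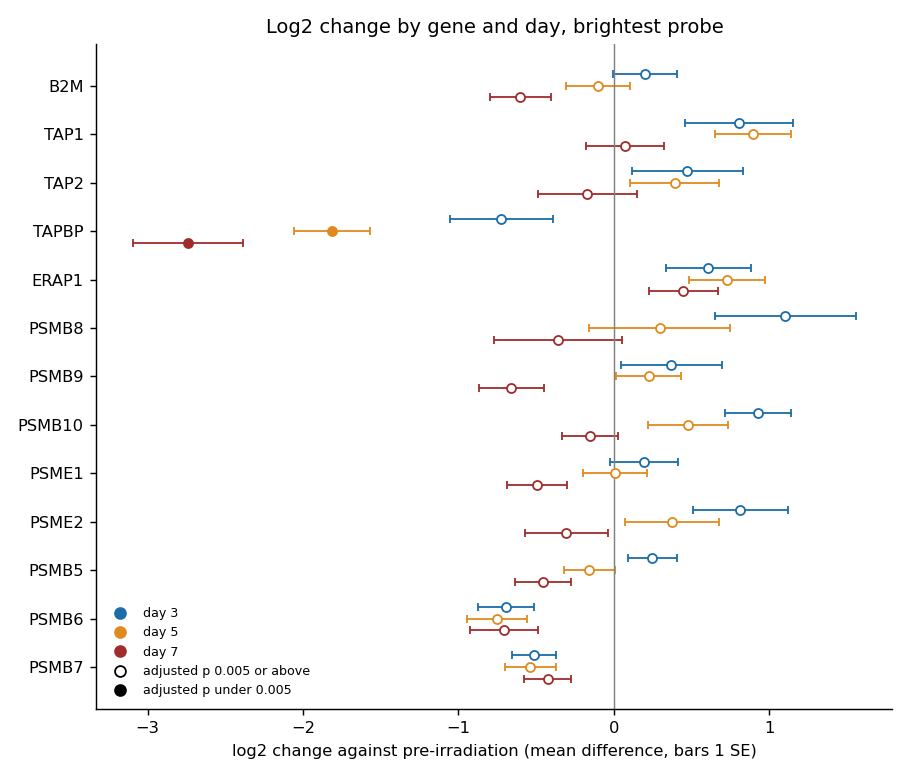
Log2 change of each gene's brightest probe against the 7 pre-irradiation arrays at day 3 (4 arrays), day 5 (6) and day 7 (7), in log2 units with bars of 1 SE; filled points have an adjusted p under 0.005. TAPBP at days 5 and 7 holds the filled points, and for PSMB8, PSMB9, PSMB10, PSME1 and PSME2 the day 3 point lies furthest right and the day 7 point furthest left.

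TAPBP, the tapasin gene, gave opposite results at its probes. At probe A the pre-irradiation arrays ran from 13.28 through a median of 13.61 to 14.91. The day 3 arrays read 13.78, 12.66, 13.27 and 12.68 for replicates 1, 2, 4 and 7. At day 5 the arrays ran from 11.65 through 12.02 to 12.23, and at day 7 from 10.27 through 10.76 to 12.46. Every day 5 and day 7 array was below every pre-irradiation array, and at day 3 this held for 3 of 4. The log2 difference was −0.72 ± 0.33 (SE) at day 3 (limma adjusted p = 0.107). The probe fell by 1.81 ± 0.25 at day 5 (adjusted p = 0.0001) and by 2.74 ± 0.36 at day 7 (adjusted p = 7.6e-05). Each animal with both samples was lower at each day, 4 of 4, 6 of 6 and 7 of 7. With session as a block the differences at days 3 and 5 were −1.81 and −2.90. Both rest on 1 pre-irradiation array, replicate 5, which was the highest at this probe (14.91). At day 7 each session holds as many pre-irradiation as day 7 arrays, so that block cannot move the change of −2.74, which stayed called. With normexp background correction the day 5 call was lost (−2.17, adjusted p = 0.020).

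At TAPBP probe B the direction was the reverse. The pre-irradiation arrays ran from 10.03 through 10.33 to 11.11, and the day 3 arrays read 12.47, 12.41, 12.55 and 11.62. Day 5 ran from 11.79 through 12.11 to 12.75, and day 7 from 11.08 through 11.60 to 12.26. All arrays of days 3 and 5 and 6 of 7 of day 7 were above every pre-irradiation array. The log2 changes were 1.73 ± 0.25, 1.63 ± 0.21 and 1.12 ± 0.23 (limma adjusted p = 0.00063, 7e-05 and 0.0022), all called, among 13.5%, 16.8% and 10.9% of probes. With the animal as a block the changes were 1.84 at day 3 and 1.12 at day 7 (limma adjusted p = 0.0135 and 0.0115), and the probe was called at day 5 alone. With session as a block, which rests on 1 pre-irradiation array, the differences were 1.37 at day 3 and 1.27 at day 5, and no call is read from that fit. With normexp background correction the log2 differences were 1.52, 0.98 and 1.13 and none was called, and at day 7 the call was lost without any one of 5 arrays (pre-irradiation replicates 1 to 4, day 7 replicate 1), with an adjusted p of at most 0.0063.

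Probe C, outside the gene-name rule, rose at day 5 (log2 change 1.43 ± 0.29, limma adjusted p = 0.0021), and at days 3 and 7 its log2 differences were 1.14 and 0.90 (adjusted p = 0.013 and 0.028). Within an array, the difference between probes B and A was higher by 2.45, 3.44 and 3.86 log2 units at days 3, 5 and 7 than before irradiation, with every irradiated array above every pre-irradiation array. This difference was examined after the values of both probes were seen and is given without a test.

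**Figure D2:**
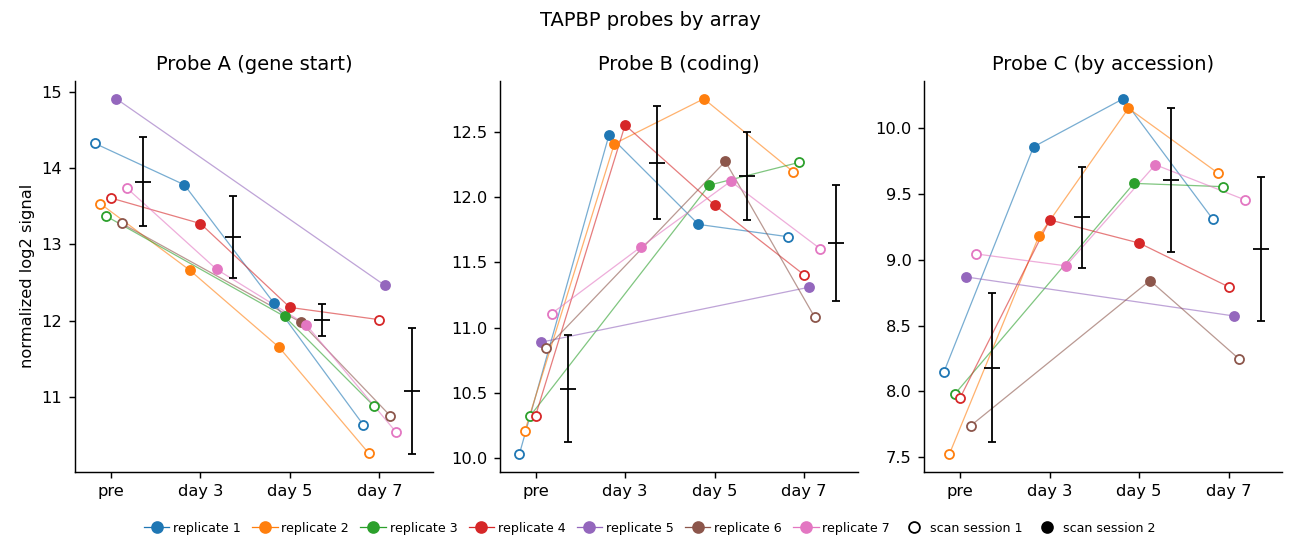
Normalized log2 signal of the 3 TAPBP probes on every array by day; lines join the samples of 1 animal, open points are scan session 1, filled points session 2, and black marks are the group mean ± SD. Probe A falls from the pre-irradiation arrays (13.28 to 14.91) to day 7 (10.27 to 12.46), while probe B is at 10.03 to 11.11 before irradiation and at 11.62 to 12.55 at day 3.

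Levels of other features stood beside the probe A values. The summed erythroid markers, on the log2 scale, ran from 19.56 to 20.70 in the pre-irradiation arrays. The range was 17.75 to 18.74 on day 3, then 14.94 to 15.93, and on day 7 it was 12.46 to 19.07. At day 7 the 2 arrays with the highest probe A signal, replicate 5 (12.46) and replicate 4 (12.01), also had the highest erythroid sums, 18.47 and 19.07. This order did not hold over all day 7 arrays, since replicate 2 had the next highest sum (17.11) and the lowest probe A signal (10.27), and replicate 7 the lowest sum (12.46) with a probe A signal of 10.55. Before irradiation replicate 5 was highest in both. The part of erythroid RNA in the probe A result was not tested. ZBTB22, the gene next to TAPBP in the T2T-MMU8v2.0 gene table, had 1 probe, which was well above background on 1 of 24 arrays. TAPBPL, which encodes the tapasin-related protein TAPBPR, rose at days 3 and 5, by 1.16 ± 0.22 and 0.93 ± 0.14 log2 units (limma adjusted p = 0.0026 and 0.00024), with all arrays of both days above all pre-irradiation arrays. With the animal as a block the day 3 call was lost (adjusted p = 0.023), and with session as a block both were (0.199 and 0.128).

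The transporter genes did not pass the threshold on any day. TAP1 read 17.52, 16.03, 17.74 and 17.11 at day 3 and 16.79 to 17.86 at day 5, against 15.77 to 17.09 before irradiation. Its log2 differences were 0.81 ± 0.35, 0.90 ± 0.24 and 0.07 ± 0.25 (limma adjusted p = 0.088, 0.011 and 0.858). All 6 animals sampled at day 5 were higher than their own earlier sample, and 4 of the 6 arrays lay above every pre-irradiation array. Without pre-irradiation replicate 7 the adjusted p at day 5 was 0.0037, which would count TAP1 as called. TAP2 was dim, with differences of 0.47, 0.39 and −0.17 at its brighter probe and −0.0040, −0.038 and −0.37 at the other. ERAP1, the trimming peptidase, had differences of 0.61, 0.73 and 0.45 (adjusted p = 0.103, 0.031 and 0.143) and was higher in 4 of 4, 6 of 6 and 5 of 7 animals.

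Among the immunoproteasome subunits PSMB10 had the lowest adjusted p. Its day 3 arrays read 17.02, 16.03, 17.00 and 16.39, against 15.51 to 16.10 before irradiation. Of these 4, 3 lay above every pre-irradiation array, and all 4 animals were higher. The log2 difference was 0.93 ± 0.21 (limma adjusted p = 0.0061), 1.90-fold, just outside the threshold. It was called without day 3 replicate 2 (1.12, adjusted p = 0.0026). At day 5 replicates 3 and 4 read 17.29 and 16.67 and the other arrays 15.60 to 15.97, so that the mean difference of 0.48 ± 0.26 (adjusted p = 0.162) came from 2 high arrays. At day 7 the difference was −0.15 ± 0.18 (adjusted p = 0.554).

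PSMB9 had differences of 0.37 ± 0.32, 0.22 ± 0.21 and −0.66 ± 0.21 log2 units (limma adjusted p = 0.390, 0.424 and 0.029). At day 7, 4 of 7 arrays were below every pre-irradiation array, and 6 of 7 animals were lower. With quantile normalization the day 7 difference turned sign, to 0.16. The coding probe B of PSMB9 gave 0.59, 0.51 and −0.29. The brightest PSMB8-described probe gave 1.11 ± 0.46, 0.30 ± 0.45 and −0.36 ± 0.41 (adjusted p = 0.077, 0.644 and 0.549), and its coding probe 1.39, 1.07 and −0.16. PSMB8 varied widely before irradiation, from 14.24 to 16.53, with replicate 7 highest.

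PSME2 and PSME1, the PA28 subunits, had differences of 0.82 ± 0.31 and 0.19 ± 0.22 at day 3, 0.37 and 0.01 at day 5, and −0.30 and −0.49 at day 7. None passed the threshold, and the lowest limma adjusted p were 0.049 and 0.055, for probes B and A of PSME2 at day 3. PSME2 read 18.12, 16.69, 17.88 and 16.97 at day 3, so replicates 1 and 4 were above the highest pre-irradiation array (17.35) and the other 2 inside the earlier range. Its 2 probes overlap by 57 bases and differ there by T13C and T46C, counted from the 5′ end of probe A. They gave nearly the same differences, 0.82 and 0.81 at day 3.

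B2M, the light chain, had a saturated probe A on 1 array. Its 3 probes gave day 7 differences of −0.60 ± 0.20, −0.48 ± 0.13 and −0.73 ± 0.22 log2 units, with limma adjusted p of 0.033, 0.012 and 0.026. Before the arrays were shifted, the median signals of probes A, B and C were 416282, 362024 and 188751 in the pre-irradiation group. At day 7 they were 396935, 389285 and 168393. The part of array brightness in the B2M differences was not tested. At probe B, whose sequence is printed above, all 7 day 7 arrays (18.12 to 18.42) were below every pre-irradiation array (18.47 to 19.11). As a mean over its probes B2M was called at day 7 (−0.60, adjusted p = 0.0029). At days 3 and 5 probe A gave 0.20 and −0.10.

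The sizes of the uncalled differences depended on the blocks and on single arrays. In the fit blocked on the animal PSMB8 was 0.60 at day 3 and 0.19 at day 5, and PSME1 0.037 and −0.069. In the fit blocked on session, which rests on 1 pre-irradiation array, the values at days 3 and 5 were 1.77 and 0.96 for PSMB8, 1.21 and 1.33 for ERAP1, 1.27 and 1.36 for TAP1, 1.27 and 0.83 for PSME2, 0.65 and 0.46 for PSME1, and −0.23 and −0.53 for B2M, none of them called. When 1 array was left out, the day 3 difference ran from 0.028 to 0.69 for PSMB9, from 0.0029 to 0.40 for PSME1 and from 0.22 to 0.68 for TAP2. The day 5 difference ran from 0.12 to 0.34 for PSMB9, from 0.25 to 0.59 for PSMB10, from 0.18 to 0.50 for PSME2 and from 0.067 to 0.56 for PSMB8.

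**Figure D3:**
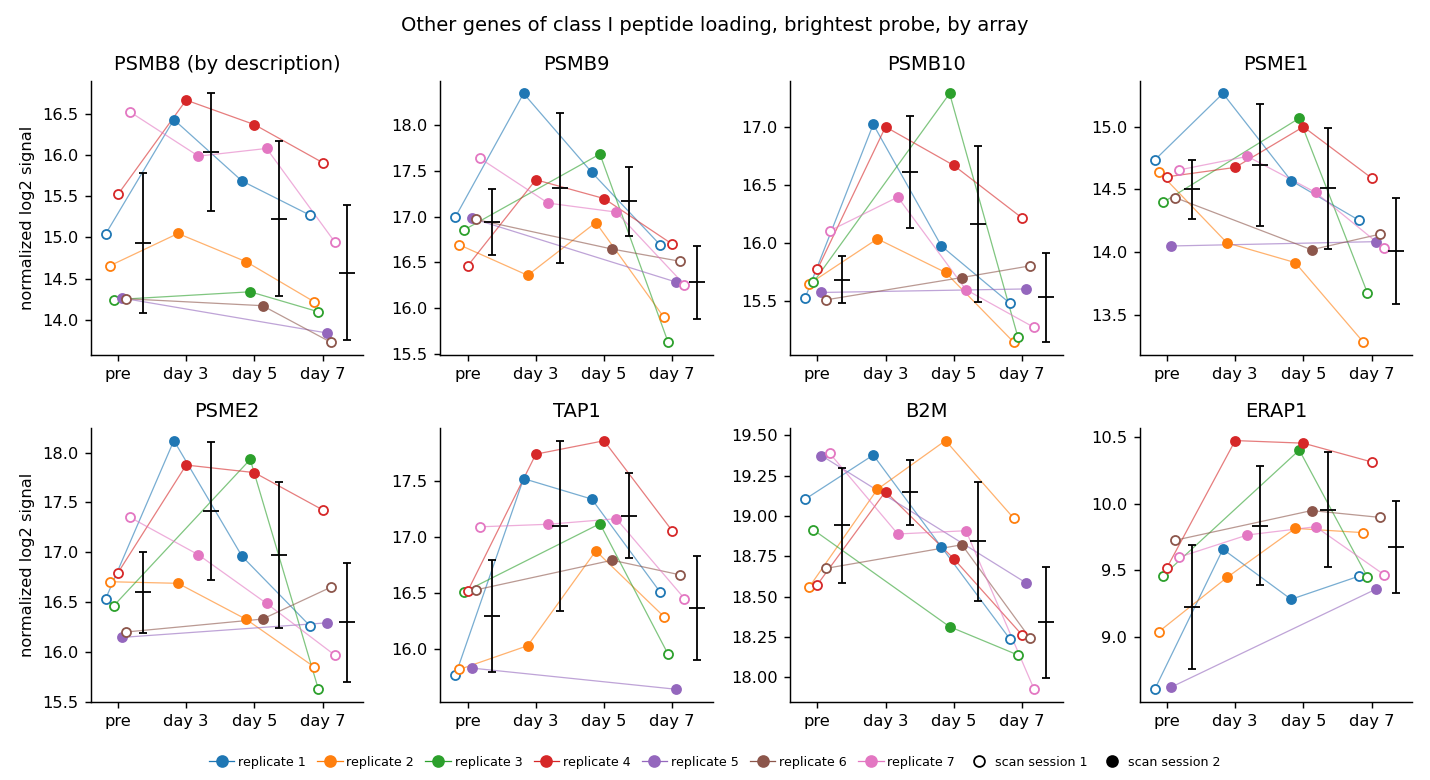
Normalized log2 signal of the brightest probe of 8 genes on every array by day; lines join the samples of 1 animal, open points are scan session 1, filled points session 2, and black marks are the group mean ± SD. Replicates 1 and 4 are high at day 3 and replicates 3 and 4 at day 5 for PSMB10 and PSME2, and B2M is lowest at day 7, down to 17.93.

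The days were also compared with each other, which uses no pre-irradiation array. At the brightest probe 0 of 9 genes were called in the comparisons of day 5 with 3, day 7 with 3 and day 7 with 5, among 0.0363%, 1.62% and 0.00908% of genes tested. At an unadjusted p under 0.05 the limma counts were 1, 6 and 5 of 9, against 11.1, 34.2 and 21.1% of genes. Every day 3 and day 5 array was scanned in session 2 and 6 of the 7 day 7 arrays in session 1, so day 7 and session can hardly be told apart here. All 9 means were lower at day 7 than at day 3 and than at day 5, with medians of −0.81 and −0.63 against −0.02 and 0.02 over all genes. The median over all genes is not matched for signal level. Against the pre-irradiation arrays the day 7 median of the 9 genes turned to 0.16 with quantile normalization, and values of other scalings are not given for these day comparisons. From day 3 to day 7 PSMB10 differed by −1.08 ± 0.27 (adjusted p = 0.020), PSME2 by −1.12 ± 0.37 (0.057), PSMB9 by −1.03 ± 0.34 (0.058) and B2M by −0.81 ± 0.22 (0.029), and each was lower in all 4 animals sampled on both days. TAPBP probe A differed by −2.02 ± 0.42 (adjusted p = 0.011), and a fit of all 4 groups together, added after the data were seen, called it (adjusted p = 0.00062, among 8.03% of probes). With session as a block, added after the data were seen and resting on 1 day 7 array, 9 of 9 genes were lower than at day 3 and 8 of 9 than at day 5 (medians of −1.01 and −0.60), 0 were called, and the lowest limma adjusted p were 0.518 and 0.607. In that fit TAPBP probe A differed by −0.63 from day 3 and by 0.46 from day 5.

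Each immunoproteasome subunit was set against the constitutive subunit that it replaces, as the difference of their log2 signals within an array, which any shift of a whole array leaves unchanged. PSMB10 minus PSMB7 read 2.52, 1.68, 2.71 and 2.02 at day 3 and 1.39, 1.41, 1.91, 1.74 and 1.43 at day 5, where the PSMB7 spot of replicate 3 was left out as an outlier. Before irradiation it ran from 0.53 through 0.66 to 1.31, so both days lay wholly above it. The mean was 2.23 ± 0.47 (SD, n = 4) at day 3, 1.58 ± 0.24 (n = 5) at day 5 and 0.79 ± 0.27 (n = 7) before irradiation, with exact two-sided permutation p = 0.003 and 0.0013. Adjusted over the 9 such tests these were 0.014 and 0.011. PSMB9 minus PSMB6 was higher by 1.07 ± 0.38 at day 3 and 0.98 ± 0.25 (SE) at day 5 (exact permutation p = 0.015 and 0.0058, adjusted 0.034 and 0.017), with 2 of 4 and 4 of 6 arrays above all earlier ones. Taken singly, PSMB9 differed by 0.37 and 0.22 and PSMB6 by −0.69 and −0.75, so the larger part lay in the lower PSMB6 signal.

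PSMB8 minus PSMB5 differed by 0.86 ± 0.47 at day 3 and 0.45 ± 0.50 at day 5 (exact permutation p = 0.139 and 0.371, adjusted 0.209 and 0.477). At day 7 the 3 differences were 0.10, 0.05 and 0.27 log2 units, with adjusted exact permutation p between 0.209 and 0.839. Within animals, PSMB10 minus PSMB7 was higher in 4 of 4 animals at day 3 and 5 of 5 at day 5, PSMB9 minus PSMB6 in 3 of 4 and 6 of 6, and PSMB8 minus PSMB5 in 3 of 4 and 4 of 6, where its mean difference within animals was 0.38 and 0.34. Exact sign flips over so few animals cannot go below p = 0.125, 0.0625 and 0.03125 for 4, 5 and 6, and no adjusted value passed 0.05 there. The day 3 call for PSMB9 minus PSMB6 was also lost without any one of 7 arrays (pre-irradiation replicates 1 to 5, day 3 replicates 1 and 4), where the adjusted p rose to 0.131 at most. The only pre-irradiation array of session 2, replicate 5, read 0.57 for PSMB10 minus PSMB7, below all day 3 and day 5 arrays of that session, and 2.74 for PSMB9 minus PSMB6.

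**Figure D4:**
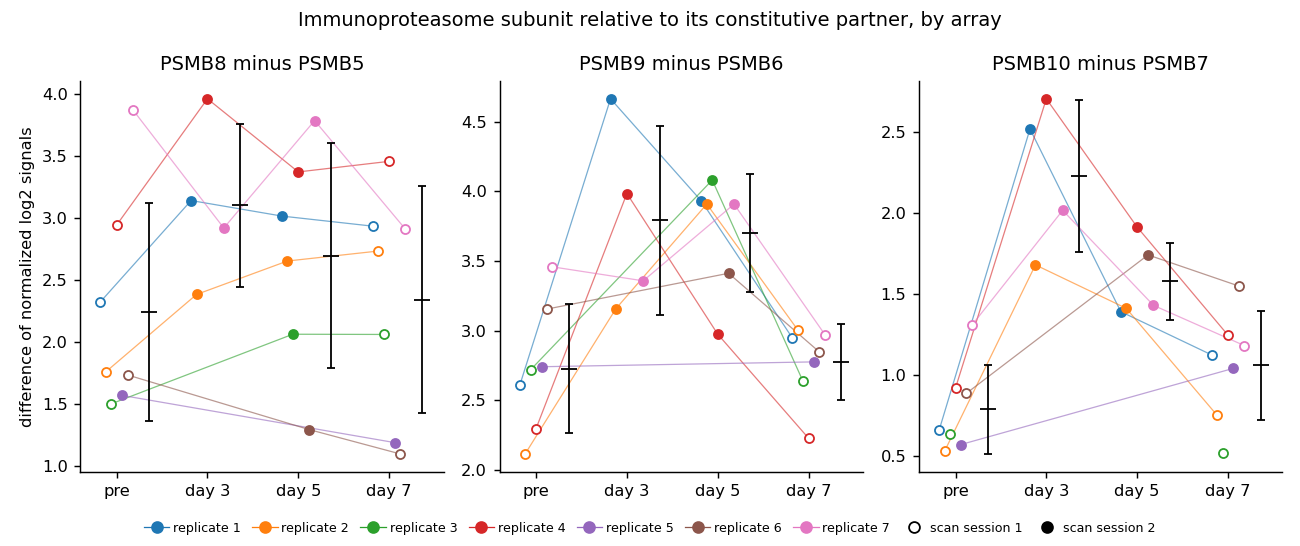
Difference of the log2 signals of each immunoproteasome subunit and its constitutive partner on every array by day; lines join the samples of 1 animal, open points are scan session 1, filled points session 2, and black marks are the group mean ± SD. PSMB10 minus PSMB7 lies at 1.68 to 2.71 at day 3 and 0.53 to 1.31 before irradiation, and PSMB8 minus PSMB5 overlaps between the days.

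The constitutive partners were not called. PSMB6 had differences of −0.69 ± 0.18, −0.75 ± 0.20 and −0.70 ± 0.22 log2 units (limma adjusted p = 0.011, 0.0087 and 0.028), and PSMB7 −0.51, −0.54 and −0.43 (0.015, 0.021 and 0.049). At day 3 all 4 arrays of both genes lay below all pre-irradiation arrays. PSMB5 gave 0.25, −0.16 and −0.45. Of the 13 constitutive core subunits with a tested probe, 0 were called on any day, and their median differences were −0.37, −0.16 and −0.23. The median was −0.018 at day 3 with session as a block, −0.56 at day 5 with normexp and −0.046 with quantile normalization, and 0.032 at day 7 with quantile normalization (7 of 13 above 0), where it turned sign.

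The heavy chains, which the loading complex fills with peptide, were called at days 3 and 5. Of 8 tested heavy-chain genes 6 rose at day 3 and 3 at day 5, against 5.96% and 6.23% of all genes tested, and 0 were called at day 7. The medians were 0.87, 0.56 and 0.01, but the day 5 median was 0.046 with normexp background correction (5 of 8 above 0) and the day 7 median 0.70 with quantile normalization (8 of 8 above 0), so the level at those days depended on the scaling. At day 3 MAMU-E rose by 1.19 ± 0.22, MAMU-F by 1.17 ± 0.19, MAMU-A by 0.99 ± 0.20, MAMU-B18 by 0.92 ± 0.17, MAMU-I by 0.82 ± 0.17 and MAMU-A3 by 0.79 ± 0.17 log2 units. For each of these 6 genes the lowest day 3 array exceeded the highest pre-irradiation array. MAMU-AG (0.71, limma adjusted p = 0.0080) and MAMU-B (0.30, 0.279) were not called. MAMU-A, MAMU-E and MAMU-F rose at day 5 as well. With the animal as a block 0 and 3 were called at days 3 and 5 (2.83% and 15.5% of probes), and with session as a block 0 and 0, with medians of 0.64 and 0.34. These genes are close copies of each other, so their probes may share transcripts and the 8 genes are not independent. Whether heavy chains and loading genes differed in their response was not tested.

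Of 25 other genes of the pathway with a tested probe, 4, 4 and 1 were called at days 3, 5 and 7 (16%, 16% and 4%, against 13.6%, 15.4% and 9.9% of all genes tested), so the share was near the background at days 3 and 5 and below it at day 7. The proteasome inhibitor subunit PSMF1 fell by 0.97 and 1.10 log2 units at days 3 and 5, and POMP, the chaperone that assembles the proteasome, fell by 0.86 at day 3. PDIA3 (ERp57), which pairs with tapasin in the loading complex, fell by 0.81 at day 5. NRDC, a peptidase that makes some class I peptides, rose by 0.72 and 0.64 at days 3 and 5. UGGT1, which returns poorly loaded class I molecules to the loading cycle, rose by 1.09 at day 7. Blocking on the animal left 0, 3 (PSMF1, PDIA3 and TAPBPL at day 5) and 0 of the 25 called, and with session as a block 0, 0 and 1 (UGGT1).

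Of 20 tested regulators 2 were called at day 3, 3 at day 5 and 1 at day 7, all higher (10%, 15% and 5%). Of all genes 5.96% and 6.23% were called higher at days 3 and 5. In either direction 13.6%, 15.4% and 9.9% of all genes were called at days 3, 5 and 7. Whether the regulators exceeded these shares was not tested. In the fit blocked on the animal 0, 2 (IRF1 and TYK2) and 0 were called at days 3, 5 and 7, and with session as a block 0 on each day, where 0.137%, 1.43% and 10.8% of all probes were called. IRF1, the interferon-induced activator of TAP1 and PSMB9, rose by 1.17 ± 0.21 at day 5 (limma adjusted p = 0.00084) with all 6 arrays above all pre-irradiation arrays, and its day 3 difference was 1.25 ± 0.31 (adjusted p = 0.0093). NLRC5, the class I transactivator, rose by 0.99 ± 0.23 at day 5 (adjusted p = 0.0046). The kinase genes TYK2 and JAK2 rose at day 3 by 1.06 and 1.02, TYK2 rose at day 5 by 0.85, and JAK1 rose at day 7 by 1.10.

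**Figure D5:**
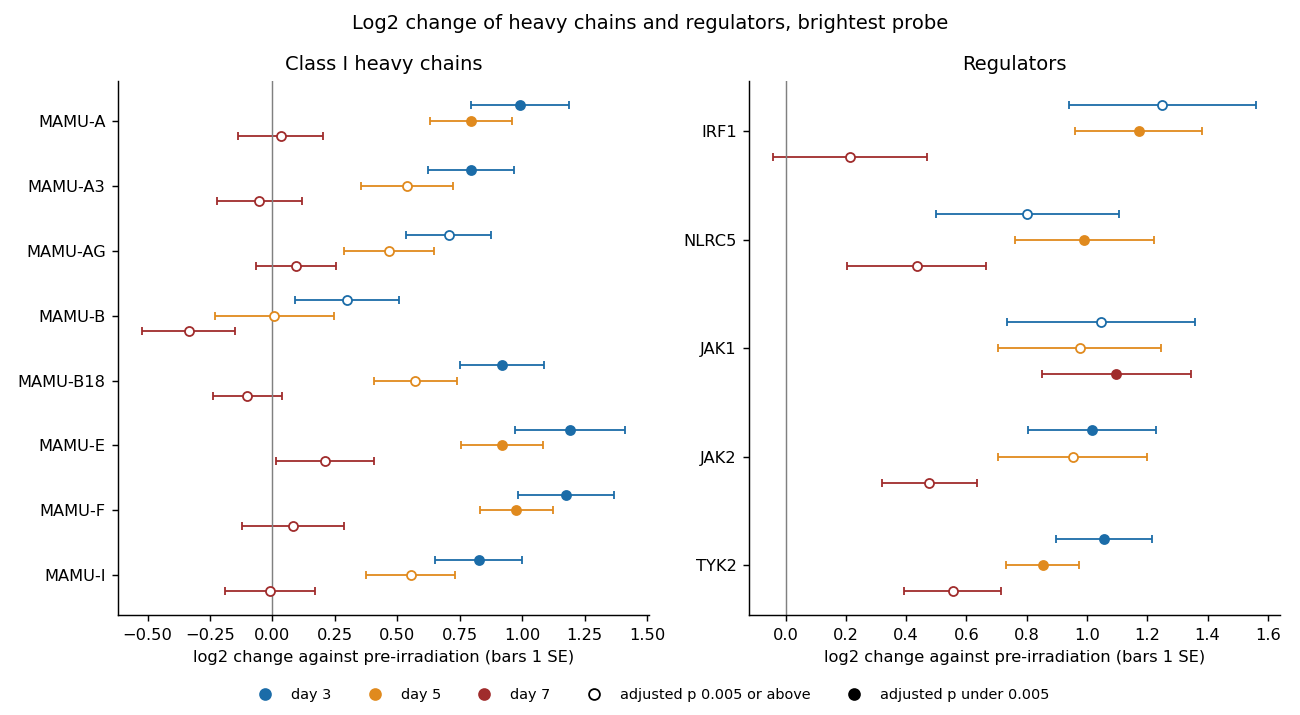
Log2 change against the pre-irradiation arrays, with bars of 1 SE, for 8 class I heavy-chain genes and 5 regulators at days 3, 5 and 7; filled points have an adjusted p under 0.005. MAMU-E lies at 1.19 at day 3 and 0.21 at day 7, and JAK1 is the gene filled at day 7.

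The 25 tested interferon-stimulated genes had median differences of 1.40, 1.58 and 0.51. The calls at days 3, 5 and 7 numbered 1, 3 and 0, all higher (4%, 12% and 0%). Among all genes 5.96% and 6.23% were called higher at days 3 and 5. The list was below this share at day 3 and above it at day 5. In either direction 13.6%, 15.4% and 9.9% of all genes were called. Whether the list differed from these shares was not tested. With quantile normalization or normexp, 25, 25 and 21 differences were above 0. These counts were 23, 25 and 21 in the fit blocked on the animal. With the animal as a block 0, 6 and 0 were called, among 2.83%, 15.5% and 8.58% of probes. With session as a block 24 genes could be fitted at days 3 and 5, which leaves out CXCL10, and their medians were 2.07 and 2.40. Those 2 fits rest on 1 pre-irradiation array, so no call is read from them. At day 7 0 of 25 were called with session as a block. WARS, the tryptophan tRNA ligase that interferon gamma induces, rose by 2.39 ± 0.49 at day 3 and 2.06 ± 0.44 at day 5. CXCL10, an interferon-induced chemokine, and PARP9 rose at day 5 by 2.99 and 1.46. With the animal as a block WARS (limma adjusted p = 0.022 at day 3 and 0.014 at day 5) and CXCL10 (0.0053 at day 5) were not called, and PARP9 stayed called at day 5 (0.0037). The summed level of the 25 genes ran from 16.19 to 17.89 before irradiation and overlapped with every day, at 17.26 to 19.41, 16.82 to 19.35 and 16.53 to 18.20.

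The genes whose signal followed the mean of the 9 members most closely over the 24 arrays were ranked among 10772 genes. RNF115 had a Pearson r of 0.90 (Spearman rho 0.84), GLRX 0.88 (0.85), BUD23 0.88 (0.85), KPNB1 0.87 (0.90) and PSMB3, a constitutive proteasome subunit, 0.87 (0.85). None of these 5 was called on any day. Among the members themselves, r with the mean of the others was 0.88 for PSMB9, 0.85 for PSME2 and 0.82 for PSMB10, and 0.27 for ERAP1 and 0.28 for TAPBP probe A. The 24 points share animals, slides and scan sessions, and these values are descriptions.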

How the data were processed

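The authors isolated whole-blood RNA, depleted globin transcripts and scanned 24 one-colour Agilent arrays. The authors' deposited scanner output gives processed intensity, background-subtracted by Feature Extraction (version 12.0.2.2 per the file headers, 10.7 per the labels). The authors' deposited value table holds log2 of that intensity shifted by a constant per array, and was used as an alternative. Here intensities were taken to log2, flagged spots left out, spots of a probe averaged and arrays shifted to the median array, after the study's methods. The tests took probes that stood well above background on 4 or more arrays and were run with limma 3.58.1 in R 4.3.3, each day against the 7 pre-irradiation arrays in a fit of those groups alone. Subunit differences were tested by exact two-sided permutation.

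Members and gene lists were chosen with earlier results of these data known. The genes named are the members, the constitutive partners, IRF1 and NLRC5, genes of the other lists called on any day, up to 8 a list, and the 5 closest in pattern. A withheld item is not reported here. Of 43603 probes, 23054 had a gene name, 1230 were named by accession and 19319 had none. Same-numbered samples deviated together in every pair (r from 0.132 to 0.455, against medians of −0.050 to −0.080 for other numbers), so the numbers are taken to pair the samples. Each same-numbered pre-irradiation and day 7 pair also shared a slide and a scan session. There animal and slide cannot be told apart. Alternatives covered centring, background, filter, probe choice, blocks and leaving out each array. On simulated data for day 3, 6% of log2 changes of 1 and 67% of log2 changes of 2 were recovered, and 24% and 83% for day 7. The simulation changed far fewer probes than were called in the data, which makes its adjusted threshold stricter. These shares therefore do not measure recovery in the data. The number of arrays limits the precision.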

Additional observations from a re-analysis of the deposited data

Results flagged for a closer look

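At TAPBP probe B, day 3 replicate 7 read 11.62, far below the other 3 day 3 arrays, which read 12.41 to 12.55. Of 48 groups of arrays examined in this way it was the 1 that stood out, and chance flags about 1 in 20. TAPBP probe C, which lies outside the gene-name rule, rose by 1.43 log2 units at day 5 (limma adjusted p = 0.0021).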

How the results depend on the processing

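TAPBP probe A was called at days 5 and 7 without any single array and under every other alternative that used it alone, except normexp at day 5 (−2.17, limma adjusted p = 0.020). Averaged with probe B it was not called, at −0.094 and −0.81, while B2M averaged over its probes became called at day 7 (−0.60), so the day 7 count stayed at 1 with another gene. The count of called members at day 3 was 1 with quantile normalization, a filter on all arrays of 1 group, the slide as a random block (PSMB10 each time) or any probe of a gene (TAPBP probe B, 1.73). At day 5 it was 2 with quantile normalization (TAP1 and TAPBP), 0 with normexp background and 0 with the mean over probes, and from day 3 to day 7 it was 1 with all groups in 1 fit. Leaving out 1 array gave 0 to 1 at day 3 and 1 to 2 at day 5. The replicate block changed no other member call than those given for TAPBP probe B. Normexp called 139 probes at day 3, 239 at day 5 and 317 at day 7, against 3656, 4542 and 2954, and the median difference of all probes at day 5 was 0.16 with it, against 0.023. Quantile normalization split the day 7 calls into 1160 higher and 1366 lower, against 977 and 1977. A called direction turned for TAPBP at day 5, from −1.81 to a called 1.63 with any probe of a gene. Several uncalled differences also turned sign. With quantile normalization B2M at day 3 was −0.076, and at day 7 PSMB9 was 0.16, PSMB10 0.49, PSME2 0.50 and PSMB8 0.17. With normexp, day 5 gave PSMB9 −0.38, PSMB10 −0.040, PSME1 −0.55, PSME2 −0.22 and PSMB8 −0.31, and day 7 PSMB10 0.00704. Session as a block gave B2M −0.23 at day 3, and the replicate block PSME1 −0.069 at day 5. The mean over probes gave TAPBP 0.50 at day 3, and any probe gave B2M 0.19 at day 5, where the authors' values gave B2M 0.25. Leaving out 1 array, day 5 ranged from −0.22 to 0.0066 for B2M and −0.11 to 0.13 for PSME1, and day 7 from −0.043 to 0.21 for TAP1 and −0.29 to 0.015 for TAP2. The subunit differences called at days 3 and 5 were not called within animals (replicate block), at 1.17 (PSMB9 minus PSMB6) and 1.37 (PSMB10 minus PSMB7) at day 3 and 0.98 and 0.72 at day 5, where fewer animals limit the smallest p. Leaving out 1 array, PSMB8 minus PSMB5 ranged from 0.57 to 1.13 at day 3 (called without pre-irradiation replicate 7) and −0.089 to 0.37 at day 7, and PSMB9 minus PSMB6 from 0.77 to 1.28 and −0.056 to 0.17. The cause was not tested for any of these.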
